A study of Mus musculus with 22 samples.

Results

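The comparison set mouse embryonic stem (ES) cells of the Dux clone N22 against wild-type (WT) cells, both given the solvent DMSO for 3 days. It rests on RNA-seq of 4 of the 22 libraries of the series, 2 titled Dux-N22-DMSO and 2 titled WT-DMSO, which were chosen by title. N22 is read here, from its title, as 1 clone of the Dux (n=1) cells, in which CRISPR-Cas9 left 1 copy of the duplicated Dux cluster, and WT as cells with the cluster unedited. The titles do not say whether N22 is the same clone as one of the untreated Dux (n=1) clones. All 4 libraries came from cells grown in serum and LIF with no other agent. The titles name no parent line for WT and no separate cultures. The spread behind each edgeR p-value here is therefore that between libraries of one group. It was estimated over all 12 DMSO and GSK-3484862 libraries together, and it may be technical. N22 is a single clone: an effect of the Dux copy and any other difference of this clone from the WT cells cannot be told apart. Other libraries serve as context. They are Dux-KO22, a clone edited to remove Dux, with DMSO (2 libraries), N22 and WT given GSK-3484862 (2 each), 4 untreated Dux (n=1) clones, 3 untreated Dux-KO clones and 3 untreated libraries of the E14 ES cell line. GSK-3484862 degrades DNMT1, the enzyme that maintains DNA methylation. Its dose is 1 uM in the treatment protocol and 2 uM in the design text.

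Dux encodes a homeobox transcription factor that is transcribed when the mouse embryo first activates its genome, and its targets include the Zscan4, Usp17l and Tcstv gene families. In ES cell cultures Dux and these targets are silent in most cells and appear in rare cells that resemble the 2-cell embryo. Silencing of Dux in ES cells involves repressive chromatin, and DNA methylation keeps imprinted and many germline genes silent in the same cells.

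Gene counts summed to 18314745 and 18954095 in the N22 libraries, against 19062507 and 19427794 in the WT libraries. At this depth a gene with 0 counts in a library is limited to 0.154 to 0.164 CPM (counts scaled to a common library total; the limit is 3 counts). The 2 libraries of each group differed by more than sampling noise, with a chi-square per degree of freedom of 3.2 in N22 and 2.7 in WT. The ES cell genes Pou5f1, Sox2, Nanog, Zfp42, Esrrb, Dppa5a, Utf1 and Tdgf1 summed to 5878 to 5903 CPM in N22 and 6037 to 6128 CPM in WT. Of the feeder fibroblast markers, Postn, Lum and Dcn had no count in any of the 4 libraries, and the 8 markers together, mostly Thy1, reached 23.2 to 25.0 CPM in N22 and 19.15 to 21.6 CPM in WT. Primitive endoderm markers (6 genes) summed to 4.80 to 6.17 CPM in N22 and 8.18 to 8.49 CPM in WT. Trophoblast markers (6 genes, Elf5 at 0 counts) summed to 66.7 to 67.6 CPM in N22 and 90.5 to 94.1 CPM in WT, but without Tfap2c to 1.58 to 1.64 CPM in N22 and 1.90 to 1.94 CPM in WT. For several genes the WT DMSO libraries, rather than those of N22, lay apart from the remaining libraries of the series, and untreated E14 values are given beside many of the genes named.

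Of 16641 genes tested with edgeR's quasi-likelihood test, 4221 (25.4%) passed the threshold, which was 0.05 for the p adjusted by Benjamini-Hochberg, and are said to be called. Among them 1910 (11.5%) were higher and 2311 (13.9%) lower in N22 than in WT. Most differences were small: 189 genes (1.14%) rose and 214 (1.29%) fell by at least 2-fold, 2.42% in all. The median log2 fold change over all tested genes was -0.02. DESeq2 called 211 genes at 2-fold or more, against 403 with edgeR, and without N22 library 2 the count of all calls was 2811. These shares, 11.5% higher and 13.9% lower, are the background for each count of list members below in N22 against WT with DMSO.

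**Figure D1:**
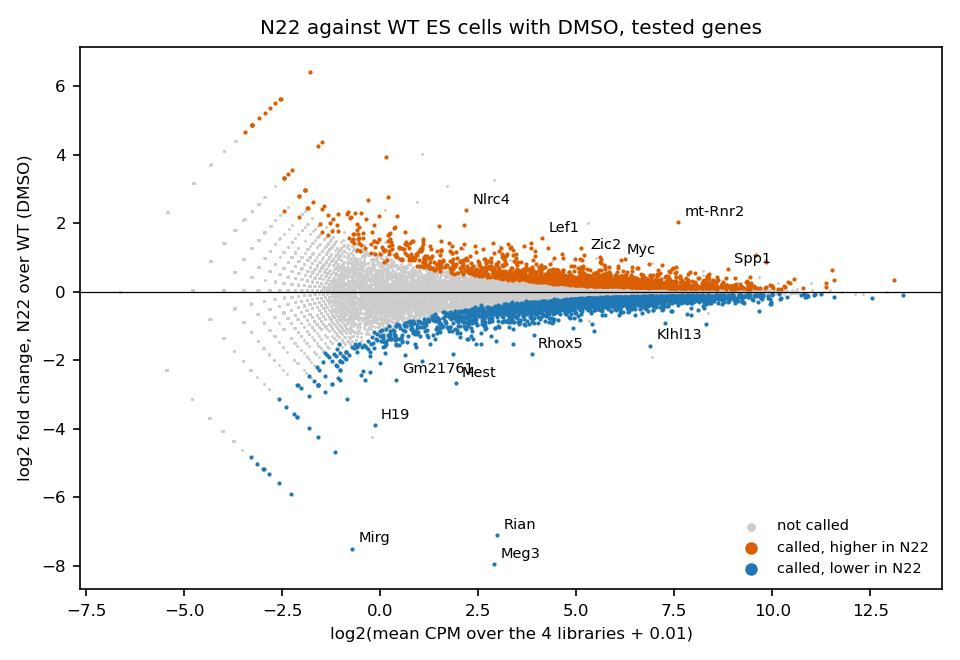
Each point is 1 of the 16641 tested genes, with the log2 of its mean CPM over the 4 libraries (plus 0.01) on the x axis and the log2 fold change of N22 over WT with DMSO on the y axis. The 1910 genes called higher and 2311 called lower lie mostly close to 0, while Meg3, Rian and Mirg form the lowest points among the labelled genes.

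Dux itself was at the limit of detection. Duxf3 (ENSMUSG00000075046, GRCm38 chromosome 10, 58229979 to 58232675), the annotated Dux gene, had 3 and 0 counts in N22, against 1 and 1 counts in WT. Its copy Gm4981 had 0 counts in all 4 libraries. The groups overlapped, and neither gene checks the genotype at this depth, since reads shared between copies were not counted. Of the untreated libraries, the one labelled Dux-KO clone 22 had 5 counts of Duxf3, 25 of Gm21761 and 22 of Usp17le, which goes against its label, whereas KO22 with DMSO had 0 counts of all 3 genes. The Zscan4 family had 22 counts in untreated Dux-KO clone 52, and 5 in both Dux-KO clone 15 and Dux (n=1) clone 40. These RNAs do not check the labels of the untreated clones.

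The Zscan4 and Usp17l families of the 2-cell embryo were lower in N22, while the Trim43 family was not. In bulk RNA fewer cells in this state and less RNA per cell cannot be told apart, and reads shared by near-identical copies were not counted, so values of single members are uncertain. The Zscan4 family, whose products act in telomere maintenance of ES cells, summed to 38 and 47 counts in N22 against 90 and 115 counts in WT (5 members). In CPM this was 2.28 ± 0.29 in N22 and 5.32 ± 0.85 in WT (SD, n = 2 each), or -1.22 on the log2 scale. The Usp17l family of deubiquitinases summed to 1.75 and 1.32 CPM in N22, against 4.04 and 4.58 CPM in WT. The groups did not overlap for either family. The 3 Trim43 genes of the list went the other way, with 19 and 26 counts in N22 against 9 and 13 counts in WT, and none of them was called. An exact two-sided permutation test gave p = 0.333 for each of the 3 families, the smallest p that 2 against 2 libraries allow. In KO22 with DMSO, Zscan4 had 0 counts in both libraries, so that N22 was at least 28.4-fold higher than KO22 (floor of 3 counts over the group).

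Gm21761, a gene model of the 2-cell embryo, had 8 and 6 counts in N22, 0 and 0 in KO22, and 38 and 49 in WT. It fell by 2.57 ± 0.35 on the log2 scale in N22 against WT (SE, edgeR adjusted p = 2.83e-08), and N22 was at least 4.67-fold above KO22. Usp17le had 15 and 10 counts in N22, 0 and 0 in KO22, and 29 and 47 in WT, a fall of 1.55 ± 0.34 in N22 against WT (edgeR adjusted p = 0.000241). The N22 libraries lay between KO22 and WT for both genes, without overlap. Zscan4d had 6 and 24 counts in N22 and 32 and 48 in WT (log2 fold change -1.36 ± 0.36, edgeR adjusted p = 0.0046). Its N22 libraries differ widely from each other, and the call was lost without N22 library 1 (adjusted p = 0.177) and without WT library 2 (0.0992). Zscan4c, with 17 and 15 counts in N22 against 18 and 32 in WT, was not called (-0.59 ± 0.36, edgeR adjusted p = 0.247). Tcstv3 had no count in N22 and 3 and 5 counts in WT, at least 2.58-fold lower in N22. Usp17la had 2 and 4 counts in N22 and 20 and 11 in WT (-2.28 ± 0.58, edgeR adjusted p = 0.0020). The edgeR call of Tcstv3 was lost without N22 library 1 or 2 or WT library 2 (adjusted p 0.132, 0.140 and 0.124), and that of Usp17la without WT library 1 (0.0793).

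Of the 51 genes of the 2-cell list, 41 were tested and 18 of these reached 10 counts in any of the 4 libraries. The count filter was set over all 12 treated libraries, and members passing it are not all members. In N22 with DMSO 11 members fell, 1 rose (Zfp750) and 29 were not called, with a median log2 fold change of -1.34 (-1.02 with the 9 genes at 0 counts in a group set to their bound). The members that fell were 3 Zscan4 genes, Usp17la, Usp17le, Tcstv3, Pramef25, Gm4027, Gm21761, Gm5662 and Gm2016. The call of Zfp750 was lost without N22 library 1, WT library 1 or WT library 2 (adjusted p 0.225, 0.114 and 0.0728). DESeq2 called 7 members lower. Leaving out N22 library 1 or 2 gave 7, and leaving out WT library 2 gave 6. Summed without the multi-copy families (Zscan4, Usp17l, Tdpoz, Tcstv, Trim43 and numbered Gm models), the list reached 8.63 and 8.65 CPM in N22 and 7.87 and 8.54 CPM in WT, and with them 17.2 and 17.4 CPM in N22 against 25.7 and 30.3 CPM in WT. The log2 difference was -0.69 with these families and 0.075 without them (exact two-sided permutation p = 0.333 each, the smallest possible). Zfp750 and Ddit4l made up most of this remainder, with 148 and 148 of its 158 and 164 counts in N22 and 121 and 142 of its 150 and 166 counts in WT. Its other 16 genes, set apart after their values were seen, summed to 10 and 16 counts in N22 against 29 and 24 in WT, a log2 difference of -1.01 in CPM without overlap (exact two-sided permutation p = 0.333). Zfp352 had 0 counts in N22 and 2 and 4 in WT, Tmem92 had 1 and 8 in N22 and 7 and 0 in WT, and Ddit4l had 56 and 68 in N22 and 62 and 79 in WT. None of these 3 genes was called (edgeR adjusted p 0.0519, 0.834 and 0.651).

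**Figure D2:**
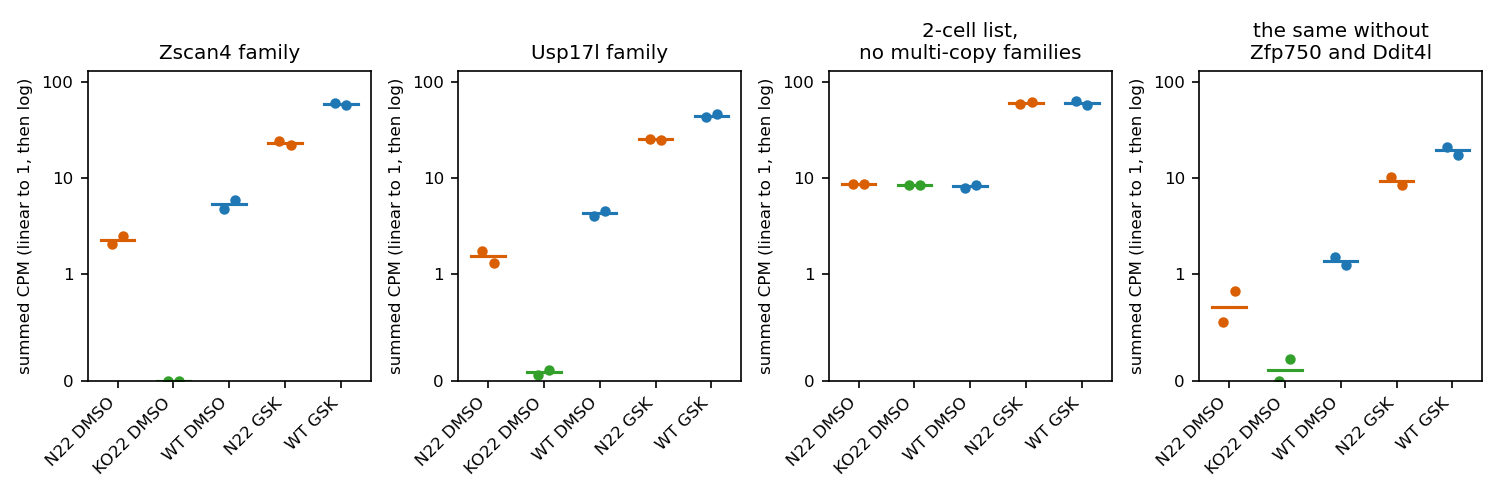
Summed CPM in each library (points, with the group mean as a line) for the Zscan4 family, the Usp17l family, the 2-cell list without multi-copy families, and these last genes without Zfp750 and Ddit4l. The y axis is linear up to 1 and logarithmic above. N22 lies below WT for both families with DMSO and with GSK-3484862 and above KO22 with DMSO. The members outside multi-copy families sum to 8.63 and 8.65 CPM in N22 and 7.87 and 8.54 CPM in WT with DMSO, most of it Zfp750 and Ddit4l, and without that pair to 0.546 and 0.844 CPM in N22 and 1.52 and 1.24 CPM in WT.

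The promoters of Dux and of Gm21761 and Zscan4d are shown because a letter match to the motif known for mouse DUX can be looked for in them. Whether DUX acts on them in these cells was not tested. Capitals mark a match to GATTNAATC, the inner 9 letters of the longer motif, on either strand. Each window runs from 250 bases before to 50 bases after the annotated start (RefSeq, GRCm38.p6). Duxf3 is chr10:58233040-58233339 (minus strand), Gm21761 is chr13:119913419-119913718 (minus strand) and Zscan4d is chr7:11166099-11166398 (minus strand). The Gm21761 window lies inside the counted gene model (119912095 to 119929272), away from its upper end.
Duxf3: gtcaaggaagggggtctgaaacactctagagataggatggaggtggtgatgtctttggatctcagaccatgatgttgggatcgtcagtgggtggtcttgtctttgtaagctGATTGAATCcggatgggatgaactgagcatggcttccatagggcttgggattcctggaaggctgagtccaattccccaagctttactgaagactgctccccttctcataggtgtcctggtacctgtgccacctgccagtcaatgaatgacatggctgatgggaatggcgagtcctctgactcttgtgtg
Gm21761: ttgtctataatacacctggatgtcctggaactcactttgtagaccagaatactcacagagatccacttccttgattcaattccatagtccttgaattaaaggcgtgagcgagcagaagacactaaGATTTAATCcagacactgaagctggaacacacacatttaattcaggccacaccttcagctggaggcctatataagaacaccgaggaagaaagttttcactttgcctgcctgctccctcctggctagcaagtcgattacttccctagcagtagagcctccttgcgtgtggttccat
Zscan4d: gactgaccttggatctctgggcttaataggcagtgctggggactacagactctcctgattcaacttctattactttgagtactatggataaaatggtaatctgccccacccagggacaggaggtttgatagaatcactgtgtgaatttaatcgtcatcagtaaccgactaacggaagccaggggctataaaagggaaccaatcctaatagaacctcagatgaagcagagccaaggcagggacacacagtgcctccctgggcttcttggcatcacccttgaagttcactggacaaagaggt
The inner motif was found in 88 of 32851 promoter windows (0.268%), among them those of Duxf3 and of 3 of the 2-cell list (Gm21761, AF067061 and Gm4340), which had 26 windows for 25 of its genes. The longer motif, the inner one with T before it and A after it, was found in 11 windows (0.0335%), none from the 2-cell list. Its variant that starts with TAATT in place of TGATT was found in 19 windows (0.0578%), among them those of BB287469 and Gm4027 of the 2-cell list. The Zscan4d window holds no match.

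The largest falls were in imprinted genes of the Dlk1-Dio3 region on chromosome 12. Meg3, a maternally expressed long noncoding RNA, had 0 and 2 counts in N22, against 270 and 308 counts in WT. WT exceeded N22 280-fold (95% counting interval 77.1 to 2316; edgeR adjusted p = 2.14e-36). Rian, its neighbour in the same maternal transcription unit, had 1 and 3 counts in N22 and 297 and 307 in WT (-7.11 ± 0.22, edgeR adjusted p = 3.40e-37). Mirg, another RNA of the unit, had no count in N22 and 29 and 17 counts in WT, at least 14.9-fold lower in N22. The groups were far apart for each, and the choice of Meg3 and Rian required that they not overlap. The paternally expressed Dlk1 of the same region had 14 and 7 counts in N22 and 34 and 29 in WT (-1.53 ± 0.34, edgeR adjusted p = 0.000286). Rtl1 of the region had 0 counts in N22 and 3 and 7 in WT, at least 3.23-fold lower in N22. Dio3 went the other way, with 19 and 22 counts in N22 and 6 and 13 in WT. It was not called (1.15 ± 0.48, edgeR adjusted p = 0.0680).

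The maternal RNAs of the region were also low in libraries other than N22. Meg3 measured 0.0556 and 0.207 CPM in KO22 with DMSO and 0.397 to 0.492 CPM in the 3 untreated E14 libraries, against 14.2 and 15.9 CPM in WT with DMSO. With GSK-3484862 it reached 137 and 139 CPM in N22 and 162 and 164 CPM in WT. The difference there was -0.23 ± 0.05 (edgeR adjusted p = 0.00293), a fall of the same direction and far smaller size. Among untreated and DMSO libraries, the WT DMSO pair was the only one with Meg3 above 1 CPM.

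The Meg3 promoter is shown because its RNA was nearly absent from N22 with DMSO and present in N22 given the DNMT1 degrader. Capitals mark each CG, the dinucleotide that carries DNA methylation (RefSeq, GRCm38.p6, chr12:109540746-109541045, plus strand).
Meg3: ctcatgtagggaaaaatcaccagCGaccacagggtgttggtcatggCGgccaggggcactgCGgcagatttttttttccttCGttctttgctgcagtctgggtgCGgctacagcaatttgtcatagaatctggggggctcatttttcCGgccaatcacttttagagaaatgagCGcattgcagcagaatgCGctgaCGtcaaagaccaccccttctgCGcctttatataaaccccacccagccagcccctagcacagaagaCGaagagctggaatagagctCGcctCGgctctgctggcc
The window holds 13 CG, against a median of 7 over all 32851 promoter windows. A second Meg3 window in RefSeq, chr12:109545148-109545447, holds 1 CG. No methylation was measured in these libraries.

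Other imprinted genes fell as well. Mest, a paternally expressed gene of chromosome 6 from the hydrolase family, had 1.04 and 1.00 CPM in N22, against 5.93 and 7.15 CPM in WT (-2.68 ± 0.16, edgeR adjusted p = 1.95e-22). H19, the maternally expressed RNA beside Igf2, had 1 and 3 counts in N22 and 34 and 31 in WT (-3.90 ± 0.46, edgeR adjusted p = 4.42e-10). Peg10, a retrotransposon-derived placental gene, had 249 and 264 CPM in N22 and 353 and 360 CPM in WT (-0.48 ± 0.03, edgeR adjusted p = 3.97e-19). No library of one group overlapped the other in any of the 3, which the choice of Mest required. Of 54 tested imprinted genes 21 fell, 7 rose and 26 were not called (median -0.23, or -0.17 with the 4 genes at 0 counts in a group at their bound). Dlk1, Dio3, Rtl1, H19, Mirg and Impact, like Dusp4, Nanog, Esx1, Cdx2 and some others below, were chosen after their values were seen. The 7 imprinted genes called higher moved little, Impact most at 0.34 on the log2 scale. Without N22 library 2 3 members were called higher, and without WT library 1 or 2 there were 4. In untreated E14, Mest lay at 1.36 to 1.80 CPM and H19 at 0.109 to 0.227 CPM, both nearer to N22 than to WT with DMSO. Peg10 lay at 658 to 693 CPM in E14, above both groups.

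X-linked genes that are expressed mainly in testis, placenta or tumours are often held silent by DNA methylation. Of 25 tested members of this list 3 (12%) fell, Rhox5, Usp26 and Esx1, near the 13.9% of all genes, and 1 rose, Xlr3c. The call of Usp26 was lost without N22 library 2 (adjusted p 0.0728), that of Esx1 without N22 library 1, WT library 1 or WT library 2 (0.313, 0.109 and 0.0651), and that of Xlr3c without N22 library 2 or WT library 1 (0.152 and 0.179). The list's median was -0.39, or 0 with the 9 genes at 0 counts in a group at their bound. Rhox5, a homeobox gene of the reproductive tract, had 6.99 and 5.91 CPM in N22, against 23.8 and 21.7 CPM in WT (-1.82 ± 0.11, edgeR adjusted p = 1.34e-22). Outside the list, Fmr1nb, a cancer and testis antigen, had 0.71 and 0.95 CPM in N22 and 3.36 and 3.40 CPM in WT (-2.01 ± 0.27). Klhl13, a ubiquitin ligase adaptor encoded on the X chromosome, had 57.5 and 61.3 CPM in N22 and 178 and 176 CPM in WT (-1.58 ± 0.04, edgeR adjusted p = 9.81e-40). Rhox5, Fmr1nb and Klhl13 were lower in both N22 libraries than in both WT libraries, which the choice of these genes required. Untreated E14 had 9.06 to 11.9 CPM of Rhox5, 1.42 to 1.80 CPM of Fmr1nb and 95.2 to 102 CPM of Klhl13. Among germline genes 12 of 41 fell (median -0.33) and 1 rose, the ribosomal protein paralog Rpl10l (199 and 200 CPM in N22, 131 and 129 CPM in WT). The fallers include Stra8, a retinoic acid response gene of meiotic entry, at 21.1 and 21.2 CPM in N22 and 33.2 and 36.8 CPM in WT, and the testis tubulin Tuba3a (-0.66 ± 0.07). DESeq2 called 5 germline genes lower, and edgeR called 6 without N22 library 1 and 7 without WT library 1. In the untreated Dux (n=1) clones against E14, Stra8 and Tuba3a were instead higher, by 2.85 ± 0.75 and 1.59 ± 0.41 (edgeR adjusted p = 0.0384 and 0.0355). Rpl10l was higher there too (0.45 ± 0.11, edgeR adjusted p = 0.0319). With GSK-3484862, Stra8 differed by -0.05 and Tuba3a by -0.19 in N22 against WT (edgeR adjusted p = 0.888 and 0.0139).

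**Figure D3:**
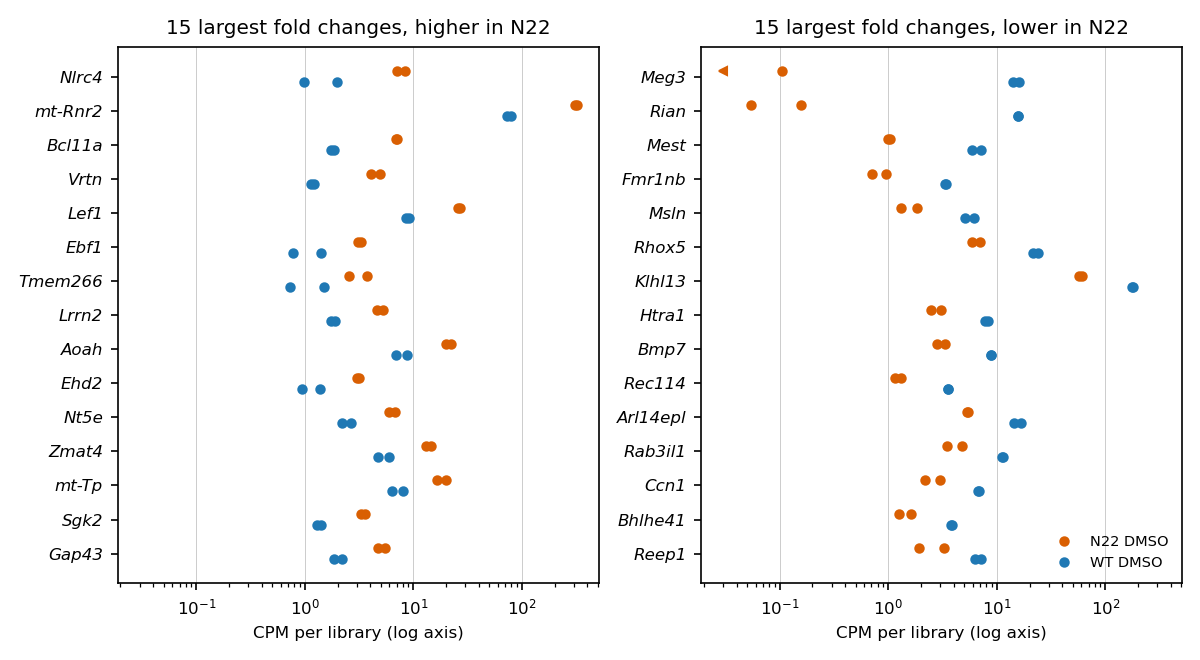
CPM in each library (log x axis) of the 15 called genes with the largest rise and the 15 with the largest fall in N22 against WT, among named genes with a mean of at least 2 CPM. N22 libraries and WT libraries do not overlap for any gene shown, which the choice of genes required, and the arrow marks the N22 library with 0 counts of Meg3.

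Among the genes that rose most, Nlrc4, a subunit of an inflammasome that senses bacterial proteins, had 6.99 and 8.39 CPM in N22 and 1.99 and 0.978 CPM in WT (2.37 ± 0.19, edgeR adjusted p = 4.42e-16). Aoah, which inactivates bacterial lipopolysaccharide, had 22.2 and 20.05 CPM in N22 and 8.71 and 6.95 CPM in WT (1.43 ± 0.11). Nt5e, the ectoenzyme that makes adenosine, had 6.83 and 6.01 CPM in N22 and 2.20 and 2.68 CPM in WT (1.39 ± 0.19). The N22 libraries were above the WT libraries for all 3 genes, which the choice of these genes required. Untreated E14 had 7.91 to 8.95 CPM of Nlrc4, 26.1 to 27.8 CPM of Aoah and 5.30 to 5.72 CPM of Nt5e. Bcl11a, a zinc-finger repressor best known from fetal globin silencing, had 6.93 and 7.02 CPM in N22 and 1.84 and 1.75 CPM in WT (1.96 ± 0.25, edgeR adjusted p = 2.94e-09). Vrtn, a DNA-binding factor linked to vertebral number in pigs, had 4.04 and 4.91 CPM in N22 and 1.21 and 1.13 CPM in WT (1.93 ± 0.30). Untreated E14 had 3.34 to 4.54 CPM of Bcl11a and 1.42 to 2.04 CPM of Vrtn, and the untreated library labelled Dux-KO clone 22 had 7.84 and 4.95 CPM, above both N22 libraries. The other genes of this group, at 1.32 to 1.53 on the log2 scale, were Ebf1, Tmem266, Lrrn2, Ehd2, Zmat4, mt-Tp, Sgk2 and Gap43. The call of mt-Tp, a mitochondrial transfer RNA, was lost when any 1 of the 4 libraries was left out (adjusted p 0.0675 to 0.145).

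Other genes were among those that fell most. Msln, the cell-surface protein mesothelin, had 1.31 and 1.85 CPM in N22 and 5.09 and 6.18 CPM in WT (-1.83 ± 0.22, edgeR adjusted p = 4.82e-10). Htra1, a secreted serine protease, had 2.46 and 3.06 CPM in N22 and 8.34 and 7.72 CPM in WT (-1.54 ± 0.16). Ccn1, a matricellular protein, had 3.00 and 2.16 CPM in N22 and 6.71 and 6.85 CPM in WT (-1.39 ± 0.19). Each was lower in both N22 libraries than in both WT libraries, which the choice of these genes required. Untreated E14 had 5.27 to 7.40 CPM of Msln, 17.98 to 20.6 CPM of Htra1 and 11.5 to 14.5 CPM of Ccn1. Rec114 of meiotic break formation, Rab3il1, Arl14epl, the circadian repressor Bhlhe41 and Reep1 fell by 1.38 to 1.52 on the log2 scale.

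Pluripotency genes moved both ways. Of 30 tested genes of the naive state 10 rose, 10 fell and 10 were not called, with a median of 0.01. Gbx2, a homeobox gene that maintains self-renewal, had 66.4 and 66.6 CPM in N22 and 38.4 and 38.6 CPM in WT (0.79 ± 0.06, edgeR adjusted p = 7.04e-17). Zfp42 had 722 and 725 CPM in N22 and 575 and 585 CPM in WT (0.32 ± 0.03), whereas Dppa5a had 881 and 853 CPM in N22 and 1135 and 1100 CPM in WT (-0.37 ± 0.03). Nanog, at 382 and 389 CPM in N22 and 391 and 384 CPM in WT, overlapped between the groups and was not called. Of 18 tested genes of the formative and primed states 9 rose and 2 fell (median 0.24), and DESeq2 called 8 higher. Lef1, the nuclear effector of Wnt signalling, had 26.7 and 25.7 CPM in N22, 2.11 and 2.22 CPM in KO22 and 8.60 and 9.06 CPM in WT. It rose by 1.57 ± 0.13 in N22 against WT (edgeR adjusted p = 3.57e-16). Zic2, a zinc-finger factor of the epiblast, had 50.5 and 49.4 CPM in N22, 8.07 and 6.78 CPM in KO22 and 22.8 and 24.6 CPM in WT (1.08 ± 0.08 against WT). Dnmt3b, a de novo DNA methyltransferase, had 396 and 398 CPM in N22 and 272 and 282 CPM in WT (0.52 ± 0.04, edgeR adjusted p = 1.07e-18). Among untreated libraries Lef1 reached 27.3 CPM and Zic2 58.6 CPM in the library labelled Dux-KO clone 22, against 6.34 to 7.98 CPM and 15.9 to 17.4 CPM in E14. With DMSO N22 was the highest of the 3 genotypes for each of these 3 genes, and N22 against KO22 differed by 3.61 for Lef1 and 2.77 for Zic2 (log2, edgeR adjusted p = 1.5e-29 and 1.8e-34). Of 20 tested germ layer genes 2 rose and 3 fell (median 0.12), with 1 called lower by DESeq2 and without N22 library 1 or 2. Sox1 had 4.26 and 4.43 CPM in N22 and 6.50 and 7.26 CPM in WT (-0.66 ± 0.17).

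More targets of FGF and ERK signalling, which drives ES cells out of the naive state, rose than fell. Of 21 tested members 11 rose, 1 fell and 9 were not called (median 0.20), and 6 were called higher without N22 library 1. Myc had 92.1 and 92.2 CPM in N22 and 48.4 and 48.1 CPM in WT (0.93 ± 0.05, edgeR adjusted p = 4.52e-23). Spry4, a feedback inhibitor of the pathway, had 230 and 240 CPM in N22 and 137 and 146 CPM in WT (0.73 ± 0.04). Dusp6, an ERK phosphatase, had 66.6 and 67.8 CPM in N22 and 46.5 and 46.4 CPM in WT (0.53 ± 0.06). The member that fell was Dusp4, another phosphatase, with 7.59 and 7.33 CPM in N22 and 12.7 and 12.3 CPM in WT. All 4 genes separated the groups, which choosing genes by small p or by value favours. Untreated E14 held 123 to 144 CPM of Myc, 267 to 274 CPM of Spry4 and 90.2 to 93.6 CPM of Dusp6, above both groups.

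In the BMP pathway 3 of 18 tested genes rose and 4 fell (median -0.14). The ligand Bmp4 had 43.7 and 42.9 CPM in N22 and 27.4 and 25.1 CPM in WT (0.72 ± 0.07), and its target Id3, an inhibitor of basic helix-loop-helix factors, 14.4 and 14.2 CPM in N22 and 5.82 and 5.82 CPM in WT (1.30 ± 0.14, edgeR adjusted p = 1.31e-11). Id1 rose by 0.62 ± 0.08. The ligand Bmp7 went the other way, with 2.78 and 3.32 CPM in N22 and 8.81 and 8.80 CPM in WT (-1.52 ± 0.20). Smad6, Smad1 and Bmpr2 fell as well, by 1.02 ± 0.16, 0.46 ± 0.10 and 0.34 ± 0.10 on the log2 scale. In the Nodal pathway 6 of 15 fell and 2 rose (median -0.20). The proteases that activate Nodal, Furin and Pcsk6, fell by 0.70 ± 0.09 and 0.55 ± 0.07 on the log2 scale. The inhibitor Lefty1 had 63.6 and 68.1 CPM in N22 and 97.2 and 96.0 CPM in WT (-0.55 ± 0.06). The 2 that rose were the ligand Nodal (0.23 ± 0.06) and the inhibitor Lefty2. Lefty2 had 127 and 126 CPM in N22 and 107 and 103 CPM in WT (0.27 ± 0.05). Of 14 Wnt targets 5 rose and 3 fell (median 0.14), and 1 was called lower without N22 library 2. Notum, which inactivates Wnt ligands, had 47.4 and 44.2 CPM in N22 and 25.3 and 28.6 CPM in WT (0.76 ± 0.08), and Axin2 rose by 0.56 ± 0.10. The 3 that fell were Nkd1 (-0.90 ± 0.22), Nkd2 (-0.75 ± 0.22) and Tcf7 (-0.17 ± 0.05). Of 15 retinoic acid genes 1 rose and 2 fell (median -0.23).

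More genes of extraembryonic lineages fell than rose, as was so over all tested genes in edgeR's fit with 12 libraries (2311 against 1910). DESeq2 went the other way over all genes, with 1616 higher and 1416 lower. The share of lower calls in these lists varied between runs and was in some no larger than the 13.9% of all genes. In the primitive endoderm list 5 of 25 tested genes fell and 1 rose (median -0.50), and 3 fell without WT library 2. Col4a2 and Col4a1, the basement membrane collagens, had 3.77 and 4.43 CPM and 9.83 and 10.7 CPM in N22, against 10.6 and 9.57 CPM and 18.2 and 19.8 CPM in WT. They fell by 1.30 ± 0.15 and 0.89 ± 0.10 on the log2 scale (edgeR adjusted p = 1.34e-10 and 4.98e-11), with no overlap. The same genes fell with GSK-3484862 by 1.07 and 0.85 (edgeR adjusted p = 7.68e-11 and 1.00e-13). The transcription factor Gata4 had 1.53 and 1.42 CPM in N22 and 2.83 and 2.78 CPM in WT. Its call (edgeR adjusted p = 0.0162) was lost with DESeq2 (0.0697) and without any 1 of the 4 libraries (0.0638 to 0.105). In the trophoblast list 7 of 18 tested genes fell and 2 rose (median -0.17). DESeq2 called 3 lower, and edgeR called 2 without WT library 1 and 4 without each of the others. Cdx2, a trophoblast homeobox gene, rose, with 10 and 7 counts in N22 and 1 and 1 in WT (edgeR adjusted p = 0.011), a call that was lost without N22 library 1, WT library 1 or WT library 2 (adjusted p 0.0851, 0.0635 and 0.0696). Tfap2c, a trophoblast and germ cell factor, had 65.0 and 66.1 CPM in N22 and 88.6 and 92.2 CPM in WT (-0.46 ± 0.06). In the fibroblast list 3 of 12 tested genes rose and 2 fell (median -0.02), Vim rising by 0.31 ± 0.04, and DESeq2 called 1 higher. 

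In the stress, metabolism and growth lists more genes fell than rose. Of 27 p53 targets 12 fell and 2 rose (median -0.18). Cdkn1a, the p21 cell cycle inhibitor, had 51.2 and 53.2 CPM in N22 and 69.1 and 69.0 CPM in WT (-0.40 ± 0.06, edgeR adjusted p = 3.93e-08), and Bbc3, the apoptosis inducer PUMA, 93.3 and 88.2 CPM in N22 and 126 and 124 CPM in WT. With GSK-3484862 16 p53 targets were called higher in N22 and the other 11 were not called, where 5.05% of all genes were called higher, Cdkn1a among them with 181 and 185 CPM in N22 and 151 and 165 CPM in WT. Of 34 cell cycle genes 14 fell and 4 rose (median -0.11), and 9 fell without WT library 2. Ccnd2, a D-type cyclin, had 64.5 and 66.6 CPM in N22 and 33.4 and 31.5 CPM in WT (1.01 ± 0.07, edgeR adjusted p = 4.24e-20), while untreated E14 had 97.2 to 101 CPM. Mcm2, a subunit of the replicative helicase, fell by 0.28 ± 0.03. Of 42 hypoxia and glycolysis genes 14 fell and 3 rose (median -0.09). The glucose transporter Slc2a3 had 891 and 872 CPM in N22 and 1123 and 1122 CPM in WT (-0.35 ± 0.03), and the hexokinase Hk2 fell by 0.33 ± 0.04. Among cholesterol synthesis genes 8 of 25 fell and 2 rose (median -0.11; 5 fell without N22 library 1), with Srebf2, the pathway's transcription factor, at 472 and 471 CPM in N22 and 591 and 587 CPM in WT. Of 26 ATF4 targets 9 fell and 4 rose (median -0.05). Ddit3, the factor CHOP, had 15.9 and 15.6 CPM in N22 and 26.2 and 29.1 CPM in WT (-0.81 ± 0.11). Of 26 adhesion and matrix genes 12 fell and 4 rose (median -0.07; 8 fell by DESeq2), with the secreted glycoprotein Spp1 at 567 and 577 CPM in N22 and 357 and 362 CPM in WT (0.67 ± 0.03, edgeR adjusted p = 9.24e-27).

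Of 29 tested KRAB zinc-finger and H3K9 methylation genes 13 rose and 1 fell (median 0.18), whereas the DNA methylation and Polycomb lists below moved both ways. Zfp57, which protects imprints, had 438 and 449 CPM in N22 and 346 and 348 CPM in WT (0.35 ± 0.03, edgeR adjusted p = 2.01e-13). Zfp459 rose by 0.59 ± 0.08 and Zfp990 by 0.37 ± 0.04. Of 44 regulators of the 2-cell state 15 rose and 6 fell (median 0.04). DESeq2 called 2 of them lower, and without N22 library 2 edgeR called 9 higher and 1 lower. Nsd2, an H3K36 methyltransferase, had 31.4 and 26.5 CPM in N22 and 56.9 and 53.6 CPM in WT (-0.93 ± 0.07). Kdm1a, Rcor1, Chaf1b, Smchd1 and Dot1l were also called lower, by 0.09 to 0.18 on the log2 scale. Dppa2, an activator of Dux, had 138 and 140 CPM in N22 and 103 and 93.6 CPM in WT (0.50 ± 0.05, edgeR adjusted p = 4.27e-13). In the DNA methylation list 7 of 28 rose and 9 fell (median 0.03). Of 16 Hox and Polycomb genes 2 rose and 2 fell (median -0.04), with Jarid2, a Polycomb cofactor, at 716 and 711 CPM in N22 and 579 and 581 CPM in WT. Of 25 genes of interferon response and RNA sensing 5 rose and 2 fell (median 0.19), and 8 were called higher with a GC content offset. Ddx58, the RNA sensor RIG-I, had 34.8 and 32.6 CPM in N22 and 15.5 and 15.96 CPM in WT (1.10 ± 0.08, edgeR adjusted p = 2.05e-18).

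**Figure D4:**
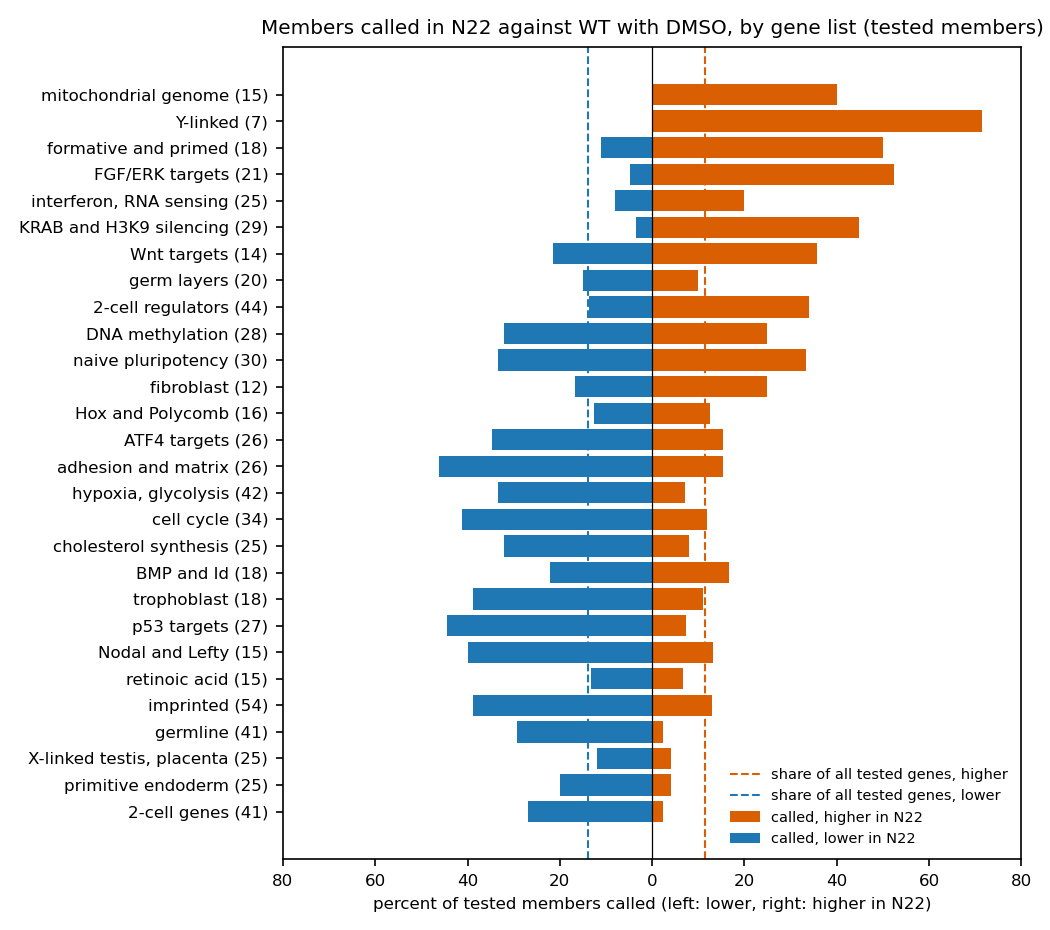
Percent of the tested members of each gene list called higher (right) or lower (left) in N22 against WT with DMSO, with the number of tested members in brackets and the lists ordered by median fold change. Dashed lines mark the shares over all tested genes, 11.5% higher and 13.9% lower. Of the 21 FGF and ERK targets 11 were higher, and of the 41 tested 2-cell genes 11 were lower.

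Genes of the mitochondrial genome took a larger share of all counts in N22, 2.17% and 2.39% in N22 against 1.78% and 1.65% in WT. Of the 15 protein-coding and ribosomal genes 6 rose and 9 were not called (median 0.49). mt-Rnr2, the large ribosomal RNA, had 307 and 319 CPM in N22, 213 and 214 CPM in KO22 and 79.5 and 72.8 CPM in WT, and rose by 2.04 ± 0.11 in N22 against WT (edgeR adjusted p = 1.74e-05). Untreated E14 had 291 to 408 CPM, and both groups had 484 to 633 CPM with GSK-3484862, so the WT DMSO pair was the lowest of these groups. The part of the mitochondrial share in these results was not tested. mt-Nd1, a subunit of complex I, had 3387 and 3725 CPM in N22 and 2310 and 2254 CPM in WT (0.64 ± 0.07). Of 7 tested Y-linked genes 5 rose (median 0.32), with Ddx3y at 75.5 and 79.7 CPM in N22 and 62.2 and 62.4 CPM in WT. Only 2 were called without N22 library 2 or WT library 1, and 3 without WT library 2.

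Along the chromosomes the medians of the 19 autosomes ranged from -0.08 on chromosome 6 to 0.01 on chromosome 13. On chromosome 6, 153 of 805 tested genes (19%) fell and 63 (7.83%) rose. The lower genes gathered between 50 and 100 Mb (GRCm38), a stretch chosen after 10 Mb bins had been seen. Its 262 tested genes had a median of -0.21, and 75 of them (28.6%) fell while 11 (4.2%) rose. Each of its 5 bins had a median between -0.22 and -0.20, while the remaining bins of the chromosome lay between -0.07 and 0.01. With GSK-3484862, in other libraries of the same clone and of WT, the stretch had a median of -0.16, with 45 of 262 (17.2%) lower and 4 higher, against 4.6% lower over all genes. In KO22 against WT with DMSO this stretch of chromosome 6 had a median of -0.07, while the remaining bins lay between 0.39 and 0.62. Of all tested chromosome 6 genes 42.2% were higher in KO22. The cause was not tested. On chromosome 12, 114 of 570 tested genes (20%) fell in N22 against WT with DMSO and 57 (10%) rose (median -0.06).

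Around Dux on chromosome 10, 12 genes within 1 Mb of the Dux start were tested, Duxf3 among them. Ranbp2, a nuclear pore protein, had 256 and 261 CPM in N22 and 235 and 229 CPM in WT (0.16 ± 0.04, edgeR adjusted p = 0.000799, no overlap). Serinc1 and Gcc2 rose by 0.20 ± 0.06 and 0.30 ± 0.09, and Sept10 fell by 0.40 ± 0.10. The other 8 were not called. The edgeR calls of Serinc1 and Gcc2 were lost without N22 library 1 (adjusted p 0.164 and 0.189), without WT library 2 for Serinc1 (0.152) and without WT library 1 for Gcc2 (0.074).

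Against KO22 with DMSO, N22 had 3505 genes higher and 3002 lower (21.1% and 18%, or 39.1% of 16641 called), and KO22 against WT had 3893 higher and 4750 lower (23.4% and 28.5%, or 51.9%). N22 against WT, at 25.4%, shares libraries with both. Of the 2-cell list 14 of 41 tested members were higher in N22 than in KO22 and 27 were not called. In KO22 against WT 23 members were lower and 18 were not called. For hypoxia and glycolysis N22 was higher than KO22 in 37 of 42 genes, and 5 were not called. Ddit4, a target of hypoxia and stress, had 206 and 196 CPM in N22, 62.4 and 59.8 CPM in KO22 and 280 and 283 CPM in WT. Htra1 had 2.46 and 3.06 CPM in N22, 33.3 and 34.6 CPM in KO22 and 8.34 and 7.72 CPM in WT, so that the 2 clones lay on opposite sides of WT.

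The GSK-3484862 libraries share no library with the DMSO comparison and were made from the same clone. N22 against WT had 1606 genes called there (9.65%), 841 higher (5.05%) and 765 lower (4.6%). Of the 1910 genes higher with DMSO, 313 were called higher (16.4%, or 37.2% of the 841) and 55 lower. Of the 2311 genes lower with DMSO, 383 were called lower (16.6%, or 50.1% of the 765) and 100 higher. Over the 403 genes past 2-fold with DMSO, the median difference was 1.44 for the 189 higher and -1.46 for the 214 lower, and with GSK-3484862 it was 0.30 and -0.34. The 2-cell list was lower there too: 19 of 41 tested members fell, 2 rose and the median was -1.08. However, the count filter also used the GSK-3484862 libraries, so a gene could pass by being high in WT with GSK-3484862 alone. That may favour lower calls in N22, and its part in these 19 was not tested. The Zscan4 family summed to 24.5 and 22.4 CPM in N22 and 61.3 and 57.7 CPM in WT. For Mest, 210 and 201 CPM in N22 stood beside 205 and 200 CPM in WT, so that the groups overlapped.

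**Figure D5:**
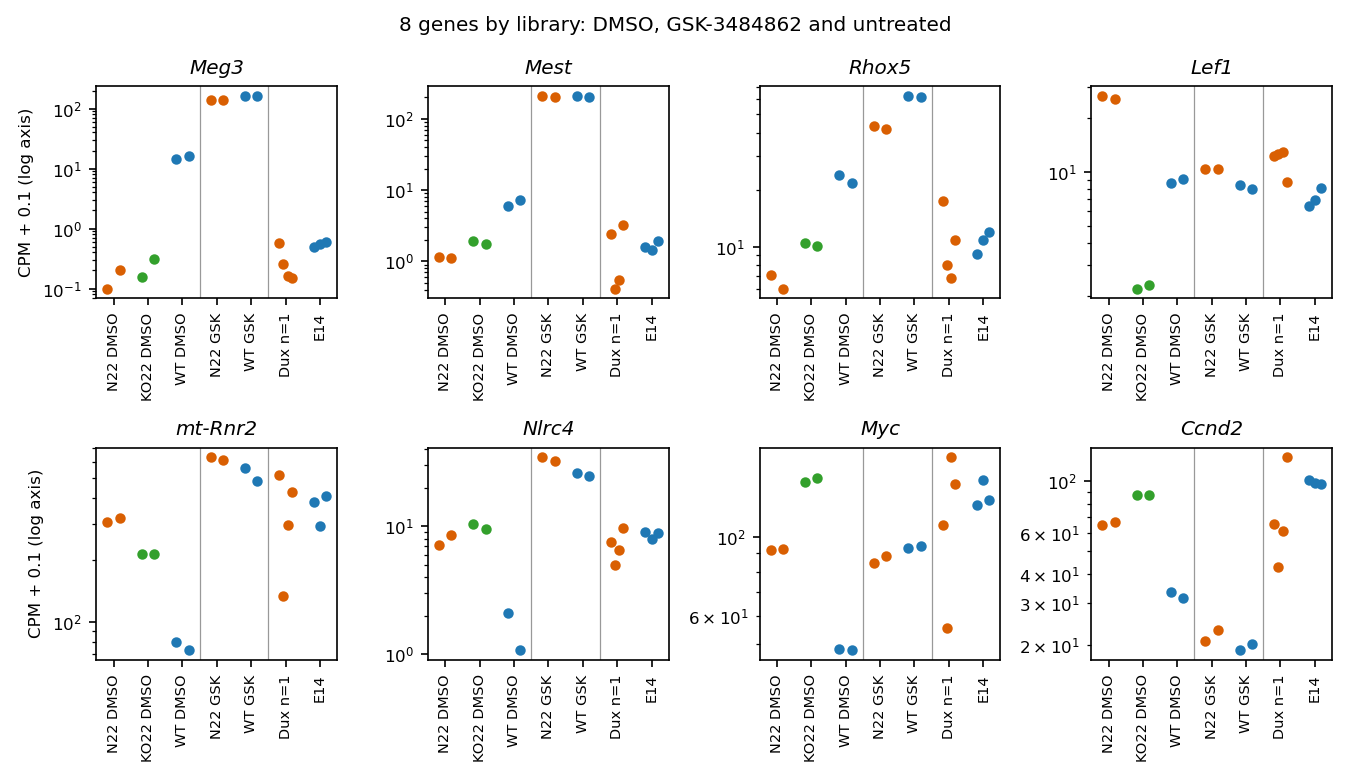
CPM plus 0.1 (log y axes, ranges differ) of 8 genes in each library, in the order N22, KO22 and WT with DMSO, N22 and WT with GSK-3484862, and untreated Dux n=1 clones and E14. Meg3 and Mest are high with GSK-3484862 in N22 and WT, among the groups shown Lef1 is highest in N22 with DMSO, and mt-Rnr2, Nlrc4 and Myc are lowest in WT with DMSO.

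The untreated Dux (n=1) clones against E14 gave 1355 calls among 14796 genes (9.16%), 722 higher (4.88%) and 633 lower (4.28%). Of the genes higher in N22 with DMSO and tested in both sets, 57 of 1887 were called higher in the untreated clones (3.02%, or 7.91% of those called) and 145 lower. Of the genes lower in N22, 54 of 2247 were called lower (2.4%, or 8.6%) and 230 higher. The median difference in the untreated clones was -0.14 for the genes higher in N22 and 0.21 for those lower in N22. Calls in the untreated set depend on single libraries: 24 genes were called without E14 library 1, 52 without E14 library 3, 344 without E14 library 2 and 351 without clone 17. Zscan4 summed to 2.30, 2.69, 0.759 and 0.258 CPM in the 4 untreated Dux (n=1) clones and 4.70 to 5.21 CPM in E14. Every clone lay below every E14 library. The 3 untreated libraries labelled Dux-KO had 0.258, 2.58 and 1.25 CPM (clones 15, 22 and 52), within the range of the Dux (n=1) clones.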

How the data were processed

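Total RNA of 22 mouse ES cell samples was sequenced from libraries made with the VAHTS Universal V6 kit, per the labels' protocols. The submitters' processing notes name fastp 0.23.2, HISAT2 2.1.0, featureCounts 2.0.1, DESeq2 1.40.2 and the build GRCm38. The authors deposited raw counts per gene, in 22 of 22 files from paired reads, without multi-mapping reads and without strand, per the file headers. Reads of a gene and of an antisense partner therefore cannot be told apart. Symbols were matched for 47310 of 47729 gene identifiers.

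From the deposited counts, genes passing filterByExpr (minimum count 10) in the 12 DMSO and GSK-3484862 libraries were fitted together with edgeR 4.0.16 (TMM factors, robust quasi-likelihood test, no block) in R 4.3.3. The 10 untreated libraries were fitted apart. Calls have a Benjamini-Hochberg adjusted p below 0.05. Errors of fold changes are standard errors on the log2 scale, and CPM is the count over the library total. The depth was 18314745 to 19427794 counts in the 4 libraries compared. Limits for 0 counts (3 counts) and ratio intervals (95%, exact binomial) cover counting error only. Scripts were tested on simulated data.

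Samples were grouped by title. The members and the 29 gene lists were chosen with earlier results of these data known. Genes are named by a rule: Dux and 7 chosen 2-cell genes, the 15 largest called changes in each direction (mean log2 CPM of at least 1, groups not overlapping, unnamed models left out), up to 3 genes of smallest p per list, and genes within 1 Mb of Dux. Others named, among them Mirg, H19, Dlk1, Dio3, Rtl1, Impact, Dusp4, Nanog, Nodal, Lefty2, Smad6, Nkd1, Nkd2, Kdm1a, Esx1 and Cdx2, were chosen after their values were seen. Alternatives were DESeq2 1.42.0, RLE factors, no count filter, only the compared groups, a GC content offset, a replicate block, and leaving out each library. Promoter windows are RefSeq's on GRCm38.p6.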

Additional observations from a re-analysis of the deposited data

Results flagged for a closer look

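For 13 of the 121 tested named genes every N22 library lay on one side of the WT libraries with DMSO and on the other side with GSK-3484862. Most of the 13 were named for a small p with DMSO, which favours separate groups there. The share of all tested genes that do so was not counted, so the count cannot be read as a trait of these genes. The difference between the treatments was not tested. Among genes higher in N22 with DMSO, Gbx2 had a log2 fold change of -0.26 with GSK-3484862 against 0.79 with DMSO, Myc -0.10 against 0.93, Dusp6 -0.41 against 0.53, Fbn1 -0.30 against 0.62 and Zfp57 -0.04 against 0.35. Jarid2 had -0.17 with GSK-3484862 against 0.30 with DMSO, Eed -0.04 against 0.25 and Ranbp2 -0.08 against 0.16. Among genes lower in N22 with DMSO, Usp26 had 0.30 with GSK-3484862 against -1.16 with DMSO, Tfap2c 0.11 against -0.46 and the apoptosis genes Bbc3 and Apaf1 0.18 and 0.12 against -0.46 and -0.37. Cdkn1a had 0.23 with GSK-3484862 against -0.40 with DMSO. In the GSK-3484862 comparison alone edgeR called Gbx2, Dusp6, Bbc3, Cdkn1a and Jarid2 (adjusted p 0.00249, 4.37e-08, 0.0152, 0.000948 and 7.27e-05). The remaining genes of the 13 were not called there.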

How the results depend on the processing

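Of the 109 named genes called in N22 against WT with DMSO, 94 kept their call under every alternative run and 15 lost it under at least one. Many of them were named for a small p or for separate groups in the same libraries, which favours keeping a call. The count therefore does not stand for all calls. The 4221 calls became 3032 with DESeq2, 4343 with a GC content offset, 4187 with RLE factors, 3933 without a count filter and 4518 with only the compared groups, and 2811 to 3048 when 1 library was left out. The share of higher genes among them was 45.2% in edgeR's fit with 12 libraries, 53.3% with DESeq2 and 54.1% without a count filter. The 403 calls at 2-fold or more became 211 with DESeq2, and leaving out 1 library gave 303 to 342. The 1606 calls with GSK-3484862 became 935 with DESeq2 and 884 to 972 without 1 library. The 1355 calls of the untreated Dux (n=1) clones against E14 became 2515 with DESeq2, 307 with a GC content offset, 2450 with only the compared groups and 24 to 1237 without 1 library. The cause was not tested.

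The log2 difference of the summed 2-cell list, -0.69, became 0.075 without multi-copy families, where Zfp750 and Ddit4l hold most counts, and -1.01 without these 2 genes as well, an alternative chosen after seeing the data. It ranged from -0.81 to -0.57 without 1 library. Genes that were never called changed sign near 0. Lims1 had 0.0032 with DESeq2 and with RLE factors, 0.013 without a count filter and 0.0085 with only the compared groups, against -0.01, and Ccdc138 0.0036 without a count filter. Leaving out 1 library gave ranges across 0 for Duxf3 (-3.15 to 1.54), Tmem92 (-1.62 to 5.22), Ddit4l (-0.29 to 0.033), Hsf2 (-0.12 to 0.029), AW822073 (-1.29 to 3.71), Lims1 (-0.068 to 0.039), Gm9987 (-4.37 to 0.052), Sh3rf3 (-0.25 to 0.28) and Sowahc (-0.27 to 0.056).

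With a replicate block 4255 genes were called (395 at 2-fold or more), and 4394 with block and GC content offset. The block changed no call of a named gene. Same-numbered libraries of N22 and WT did not deviate together (correlation 0.0453), so the numbers only name the libraries and the pairing is not established. No paired analysis was possible for the untreated set because its clones carry clone numbers. Genes under about 10 counts per library, most of the 2-cell list, are limited by depth.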
